A study of Mus musculus with 17 samples.

Results

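The proteins of Icam4, Aqp1, Epor, Tfrc, Slc4a1, Rhag and Epb42 sit in, or directly under, the surface membrane of red cells and of the cells that become red cells. These 7 genes were chosen by name, as surface, membrane skeleton and receptor genes of the red cell line, and are 7 of the 24416 genes counted. The choice was made with earlier results of these data known. Their RNA was measured in common myeloid progenitors (CMPs), blood progenitors sorted by flow cytometry that can give rise to red cells, platelets, granulocytes and monocytes. The 17 mouse libraries belong to a study of how the RNA-binding protein LIN28B and the let-7 microRNAs act on myeloid development before and after birth.

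From fetal liver there were 3 libraries labelled Lin28b KO (numbered 3, 6 and 8), 1 library of inducible let-7, and 3 libraries of wild type (1, 4 and 5). From adult bone marrow there were 2 libraries of inducible LIN28B under vavcre (4 and 6), 2 of inducible LIN28B without vavcre (1 and 5), 3 of a let-7b/c knockout (1, 2 and 3), and 3 of wild type (2, 5 and 6). The strain was C57BL/6J in all groups but the let-7b/c knockout, which is labelled albino black 6, so strain and genotype cannot be told apart in that group. The treatment field of every sample, wild types included, gives doxycycline, the drug that switches the transgene on. The vavcre lines carry a Cre recombinase driven by the Vav promoter, which is active in blood cells, and the design text describes their induction as restricted to the hematopoietic system. Ages are not given, and the labels do not tie libraries to single mice. The p-values therefore cover spread between libraries, which may be technical.

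Red cell precursors take their main survival signal from erythropoietin through its receptor, encoded by Epor, and their iron from transferrin through the transferrin receptor, encoded by Tfrc. Later in maturation they build a membrane held to a spectrin skeleton by anchoring complexes. One such complex is centred on band 3, the chloride and bicarbonate exchanger encoded by Slc4a1, with protein 4.2 (Epb42) on its inner face and the Rh-associated glycoprotein (Rhag) beside it. LIN28B blocks the maturation of let-7 microRNAs, is high in fetal blood progenitors and is low in adult ones.

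Depth and cell identity were checked before the genes were compared. Counts assigned to transcripts ranged from 14957111 to 28165554 per library. Lin28b itself did not separate the libraries labelled Lin28b KO from wild-type fetal liver: it stood at 104 ± 12.9 CPM in the labelled libraries and 104 ± 17.6 CPM in wild-type fetal liver (SD, n = 3 each, edgeR adjusted p = 1). Counts over the whole transcript do not show whether a segment of the gene was deleted, so the group is named by its label throughout. In marrow Lin28b averaged 2.83 ± 1.55 CPM with LIN28B under vavcre and 2.67 ± 0.858 CPM with LIN28B alone (SD, n = 2 each). It averaged 0.359 ± 0.351 CPM in wild-type marrow (n = 3). All 3 means were far below wild-type fetal liver. Whether RNA of the transgene is counted under Lin28b was not tested, so these values do not measure its induction. Of the 6 progenitor markers examined, Kit, which has several counted transcripts, was at 0 in every group. The summed level of the list was 3281 to 5738 CPM in the labelled Lin28b KO libraries and 5446 to 6948 CPM in wild-type fetal liver libraries. It was 6335 to 17538 CPM in the other 11 libraries. Mpo is on this list and also among the granulocyte markers used below, so the sum does not tell progenitors from granulocyte cells.

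All 7 genes had enough counts to be tested. Each is counted through 1 RefSeq transcript whose exons share no base with another counted transcript, so none lost reads to an overlapping transcript. The gene spans given here are those of RefSeq on GRCm38 (mm10), and strands and exon numbers are those of the GENCODE vM21 transcripts. The receptors lie on chromosome 9 from 21958897 to 21963576 on the minus strand (Epor, NM_010149, 8 exons) and on chromosome 16 from 32608896 to 32632794 on the plus strand (Tfrc, NM_011638, 19 exons). Slc4a1 (NM_011403, 20 exons) spans chromosome 11 from 102348820 to 102365281 on the minus strand, Epb42 (NM_013513, 13 exons) chromosome 2 from 121017891 to 121036877 on the minus strand, and Rhag (NM_011269, 10 exons) chromosome 17 from 40811099 to 40844094 on the plus strand. Icam4 (NM_023892, 3 exons) spans chromosome 9 from 21029432 to 21030596 and Aqp1 (NM_007472, 4 exons) chromosome 6 from 55336299 to 55348555, both on the plus strand. The lowest counts were in the inducible let-7 library, which held 2 counts of Aqp1, 22 of Epb42 and 77 of Icam4. Epb42 also had 59 and 46 counts in wild-type fetal liver libraries 4 and 5, and Rhag 64 in library 1 of the let-7b/c knockout.

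The promoters are shown because GATA1, the transcription factor that directs red cell development, binds GATA motifs. RefSeq promoter windows of GRCm38.p6, 300 bases long and running past an annotated transcript start, were found for 6 of the 7 genes; Slc4a1 was not among them. The motif GATAA, which reads as TTATC on the other strand, occurred once in each window of Epor, Rhag, Epb42 and Icam4, and in 25.3% of all 32544 promoter windows. The letters around it are printed 5′ to 3′ on the strand of the gene, with the motif in capitals. They lie at chr9:21963591-21963650 (minus strand) for Epor, chr17:40811106-40811135 (plus strand) for Rhag, chr2:121037064-121037123 (minus strand) for Epb42 and chr9:21029369-21029428 (plus strand) for Icam4. The Rhag stretch is 30 bases long and the others 60. The Rhag stretch precedes the transcript start of its window but lies inside the RefSeq span of the gene, which begins at 40811099.
Epor: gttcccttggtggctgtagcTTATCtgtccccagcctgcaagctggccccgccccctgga
Rhag: agtcctctgctcTTATCaacactatacagc
Epb42: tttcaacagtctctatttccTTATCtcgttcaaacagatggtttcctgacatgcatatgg
Icam4: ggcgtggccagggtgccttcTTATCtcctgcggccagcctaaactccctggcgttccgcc

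Counted from the transcript start, the first base of the motif fell at -54 in Epor, -31 in Rhag, -226 in Epb42 and -43 in Icam4. The windows of Aqp1 and Tfrc (which has 2 overlapping windows) held no such letters. The letters CCNCNCCC, which read as GGGNGNGG on the other strand, a form of the CACCC box that KLF1, another red cell transcription factor, binds, occurred in the windows of Epor (4 matches), Tfrc (5 and 3), Icam4 (2) and Aqp1 (3), in neither Rhag nor Epb42, and in 49.7% of all windows. Matches to this motif could overlap one another. A match describes these letters and is not evidence of binding.

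**Figure D1:**
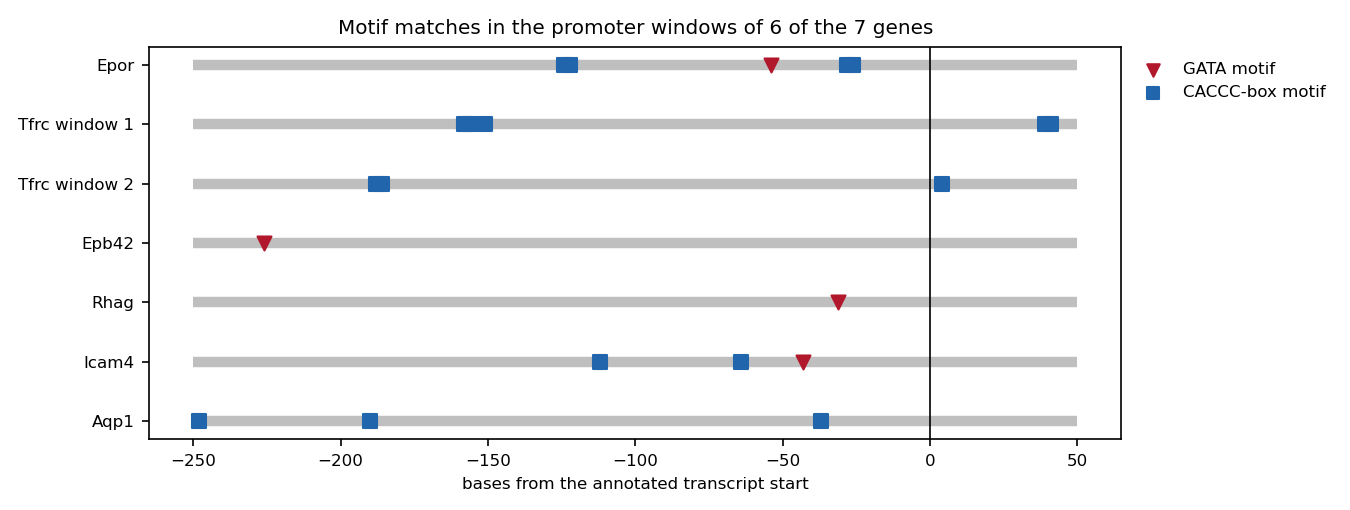
Position of motif matches in the promoter windows of 6 genes, in bases from the annotated transcript start (vertical line at 0); each grey bar is 1 window, triangles mark GATAA and squares mark the CACCC-box letters on either strand. GATAA occurs once in each window of Epor (-54), Epb42 (-226), Rhag (-31) and Icam4 (-43) and in no window of Tfrc or Aqp1.

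The let-7 microRNAs deleted in the knockout are shown to state what was searched for in the transcripts. RefSeq gives mature let-7b-5p on chromosome 15 from 85707325 to 85707346 and let-7c-5p on chromosome 15 from 85706616 to 85706637 (GRCm38.p6). The seed, bases 2 to 8, is in capitals and is the same in both.
mmu-let-7b-5p: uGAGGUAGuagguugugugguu
mmu-let-7c-5p: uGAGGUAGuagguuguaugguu

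The seed match CTACCTC was found in 0 of the 7 3′ untranslated regions (GENCODE vM21 transcripts of the counted accessions), which ran from 101 bases in Icam4 to 2458 bases in Tfrc. It was found in 1993 of the 25888 counted transcripts with such a region (7.7%). Shorter or imperfect matches were not searched.

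Outside the labelled Lin28b KO libraries the receptor genes had the narrowest ranges of the 7, taken as highest library over lowest. For Epor this rested on the single inducible let-7 library. Without that library Icam4 was more even, at 15.8 to 56.0 CPM against 10 to 47.4 CPM for Epor. Epor stood at 467, 454 and 437 CPM (counts per 1000000, on library sizes scaled by TMM) in the labelled Lin28b KO libraries 3, 6 and 8, at 12.5 CPM in the inducible let-7 library, and at 37.0, 28.7 and 23.6 CPM in wild-type fetal liver libraries 1, 4 and 5. In bone marrow it stood at 21.9 and 15.2 CPM with LIN28B under vavcre, 47.4 and 41.9 CPM with LIN28B alone, 10, 32.1 and 17.1 CPM in the let-7b/c knockout, and 20.8, 21.9 and 19.9 CPM in wild type. The labelled libraries were far above every other library, and the LIN28B libraries without vavcre were above all the rest. Wild-type marrow, the let-7b/c knockout and LIN28B under vavcre overlapped one another.

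Tfrc stood at 2110, 1769 and 1857 CPM in the labelled Lin28b KO libraries, at 81.3 CPM in the inducible let-7 library, and at 149, 119 and 111 CPM in wild-type fetal liver. Its marrow levels were 105 and 92.8 CPM with LIN28B under vavcre, 73.4 and 51.4 CPM with LIN28B alone, 97.8, 151 and 76.3 CPM in the let-7b/c knockout, and 70.8, 79.6 and 77.3 CPM in wild type. Outside the labelled libraries the values stayed within a narrow band. Its lowest group was LIN28B without vavcre, whose range overlapped that of wild-type marrow.

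The genes of the band 3 complex separated the labelled Lin28b KO libraries most widely from the wild types. Slc4a1 stood at 14082, 11863 and 13630 CPM in the labelled Lin28b KO libraries 3, 6 and 8, at 6.67 CPM in the inducible let-7 library, and at 77.9, 25.3 and 10.3 CPM in wild-type fetal liver libraries 1, 4 and 5. The marrow libraries held 128 and 157 CPM with LIN28B under vavcre, 47.2 and 43.5 CPM with LIN28B alone, 42.1, 37.7 and 40.5 CPM in the let-7b/c knockout, and 21.3, 103 and 65.3 CPM in wild-type libraries 2, 5 and 6. The wild-type groups were the least even: their highest library was 7.55 times the lowest in fetal liver and 4.82 times in marrow. The libraries with vavcre were above all other libraries outside the labelled group.

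Epb42, whose product ties band 3 to the skeleton, stood at 1353, 962 and 1224 CPM in the labelled Lin28b KO libraries, at 0.853 CPM in the inducible let-7 library, and at 7.31, 3.18 and 2.64 CPM in wild-type fetal liver. In bone marrow it stood at 29.2 and 46.2 CPM with LIN28B under vavcre, 6.56 and 6.13 CPM with LIN28B alone, 8.49, 12.8 and 5.51 CPM in the let-7b/c knockout, and 4.81, 13.1 and 8.54 CPM in wild type. The labelled libraries came first and the vavcre libraries second, both apart from every other library. The let-7b/c knockout, wild-type marrow, LIN28B without vavcre and wild-type fetal liver formed one overlapping band.

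Rhag, the glycoprotein that partners the Rh proteins, stood at 1433, 1313 and 1431 CPM in the labelled Lin28b KO libraries, at 23.6 CPM in the inducible let-7 library, and at 14.5, 10.8 and 6.02 CPM in wild-type fetal liver. Its levels in marrow were 15.1 and 19.2 CPM with LIN28B under vavcre, 13.2 and 5.86 CPM with LIN28B alone, 3.46, 52.6 and 9.0 CPM in the let-7b/c knockout, and 3.87, 11.9 and 10.8 CPM in wild type. Library 2 of the let-7b/c knockout was the highest outside the labelled group, 15.2 times library 1 of the same genotype. Among all groups but the labelled one, only LIN28B under vavcre and wild-type fetal liver were neighbours in order of mean level whose ranges did not overlap.

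Icam4, an adhesion molecule of the Landsteiner-Wiener blood group that red cell precursors use to bind integrins, had the smallest standard error of the 7 genes in all 9 tested comparisons. It stood at 373, 385 and 389 CPM in the labelled Lin28b KO libraries, at 2.98 CPM in the inducible let-7 library, and at 17.6, 15.8 and 16.0 CPM in wild-type fetal liver. Marrow libraries held 31.6 and 31.5 CPM with LIN28B under vavcre, 55.8 and 56.0 CPM with LIN28B alone, 19.5, 16.4 and 24.5 CPM in the let-7b/c knockout, and 38.3, 34.8 and 41.2 CPM in wild type. Its 7 groups fell in an order in which only the let-7b/c knockout and wild-type fetal liver overlapped.

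Aqp1, the water channel of the red cell membrane, stood at 205, 187 and 172 CPM in the labelled Lin28b KO libraries, at 0.0775 CPM in the inducible let-7 library, and at 25.7, 22.5 and 20.5 CPM in wild-type fetal liver. In bone marrow it stood at 56.5 and 60.9 CPM with LIN28B under vavcre, 90.8 and 111 CPM with LIN28B alone, 34.9, 89.7 and 35.9 CPM in the let-7b/c knockout, and 76.0, 63.0 and 67.5 CPM in wild type. It was the gene with the narrowest gap between the labelled libraries and the next group, LIN28B without vavcre. The inducible let-7 library was far below all others.

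**Figure D2:**
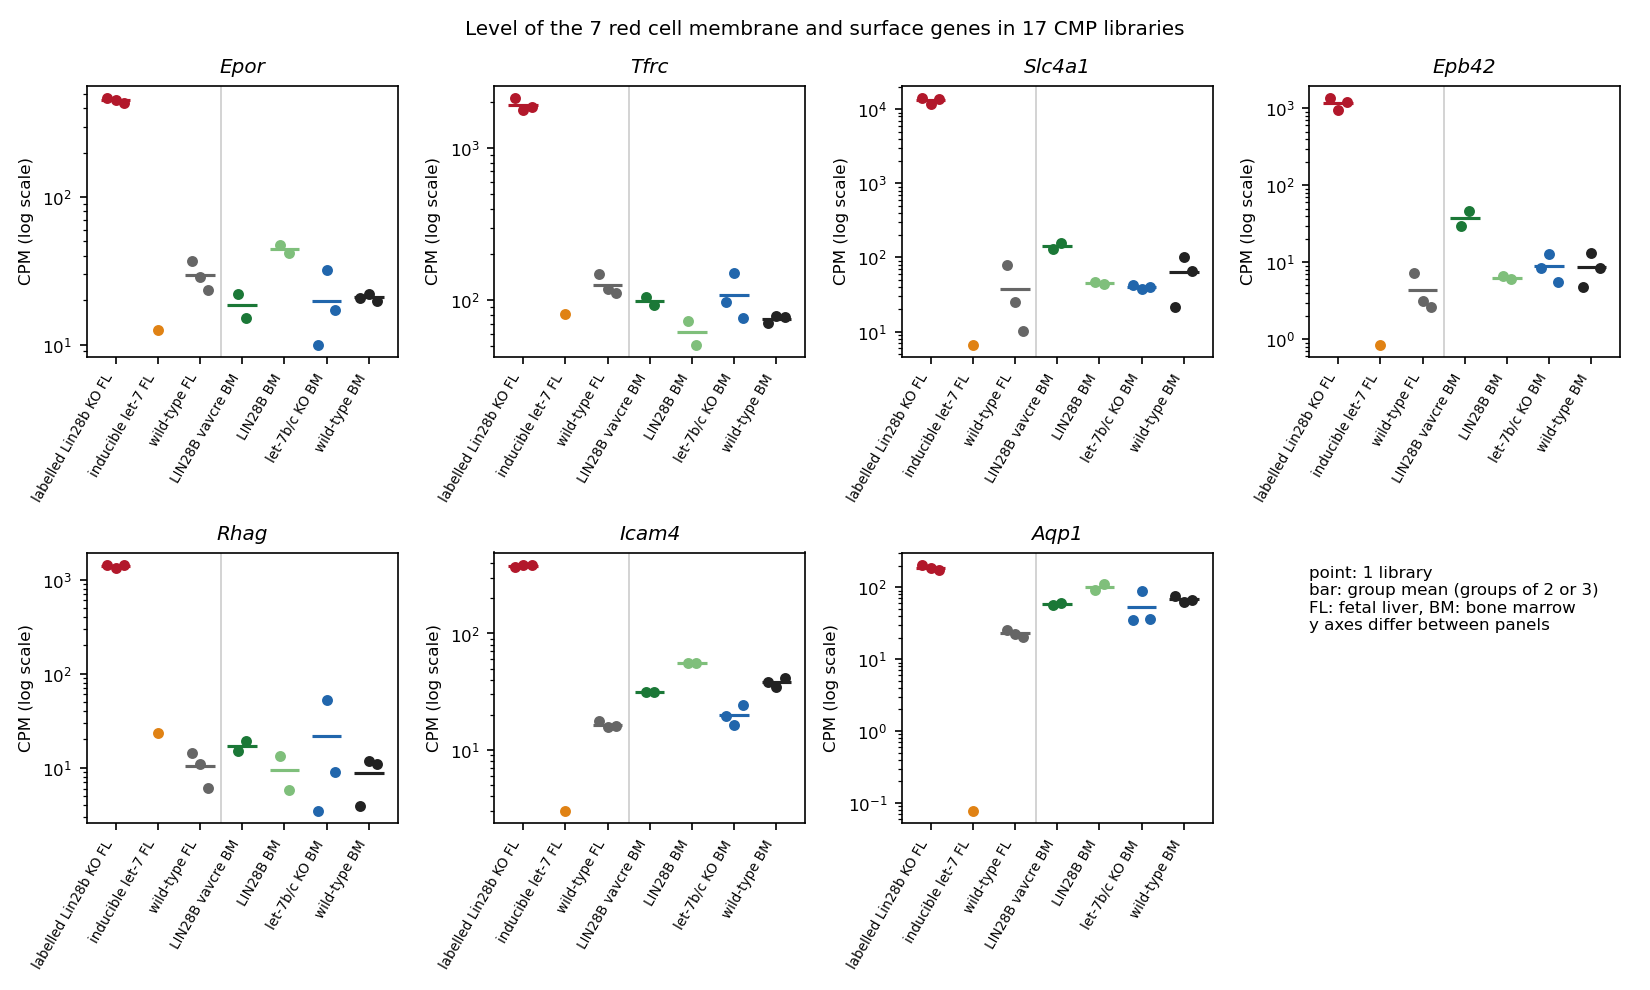
Level of each gene in CPM (log scale, axes differ between panels) in the 17 libraries; each point is 1 library and each bar the mean of a group of 2 or 3 libraries. In all 7 panels the 3 labelled Lin28b KO libraries (for Slc4a1, 11863 to 14082 CPM) lie above every other library.

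In the libraries labelled Lin28b KO all 7 genes were higher than in wild-type fetal liver (edgeR quasi-likelihood test, 7 higher of 7). Of 13558 tested genes 20.8% were called higher and 23.0% lower. For all 7 no library of either group overlapped the other, a separation whose share over all tested genes was not counted. The rise was steepest for the band 3 complex: Slc4a1 averaged 13191 ± 1172 CPM in the labelled libraries and 37.8 ± 35.5 CPM in wild-type fetal liver (SD, n = 3 each), a log2 fold change of 8.43 ± 0.71 (SE, edgeR adjusted p = 1.22e-07). Epb42 averaged 1180 ± 199 CPM in the labelled libraries and 4.37 ± 2.56 CPM in wild-type fetal liver, a log2 fold change of 8.04 ± 0.44. Rhag averaged 1392 ± 68.4 CPM in the labelled libraries and 10.4 ± 4.24 CPM in wild-type fetal liver, a log2 fold change of 7.05 ± 0.78. The receptor genes rose by similar factors, Epor 15.2-fold (log2 3.92 ± 0.30) and Tfrc 15.1-fold (log2 3.92 ± 0.22). Icam4 was 23.2-fold higher (log2 4.54 ± 0.13) and Aqp1, the smallest rise, 8.21-fold (log2 3.04 ± 0.28), with edgeR adjusted p from 9.16e-13 to 2.55e-06 over the other 6 genes. The median over the 7 genes was 4.54 on the log2 scale, against 0.00 over all tested genes.

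The size of the largest values rested in part on 1 wild-type library. Without wild-type fetal liver library 1, which had the most Slc4a1 and Epb42 of its group, the log2 fold change of Slc4a1 was 9.53 and that of Epb42 8.66. Without TMM scaling the median of all tested genes moved to -0.19, and the share of calls that were higher moved to 35.3% in place of 47.5%, while the 7 genes moved down by 0.20 to 0.22 on the log2 scale and all remained called. In bulk RNA, more cells of a type and more RNA per cell cannot be told apart.

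Other cell types' markers moved in the same libraries. The 11 of 12 erythroid markers found in the files summed to 17378 to 19346 CPM in the labelled Lin28b KO libraries and 840 to 1009 CPM in wild-type fetal liver. The 10 hepatocyte markers summed to 460 to 1471 CPM in the labelled libraries and 98.0 to 107 CPM in wild-type fetal liver, with Serpina1a and Ahsg at 0 in both groups. In wild-type fetal liver most of this sum was Trf alone (97.75 ± 3.825 CPM). The 10 macrophage markers summed to 436 to 534 CPM in the labelled libraries and 12.2 to 18.9 CPM in wild-type fetal liver, with Cd163 at 0 in both. The 8 megakaryocyte markers summed to 585 to 1048 CPM in the labelled libraries and 108 to 131 CPM in wild-type fetal liver, the 7 stroma markers to 22.5 to 113 CPM and 2.18 to 3.77 CPM, and the 10 proliferation markers to 11135 to 12372 CPM and 3948 to 4251 CPM, in the same order of groups. The 10 granulocyte markers summed to 5700 to 10983 CPM in the labelled libraries and 5206 to 6787 CPM in wild-type fetal liver, the 12 endothelial markers to 61.7 to 99.5 CPM and 54.8 to 77.3 CPM, and the 8 lymphoid markers to 39.3 to 47.6 CPM and 118 to 144 CPM. The part of these cells in the rise of the 7 genes was not tested. Within the labelled group the hepatocyte sum was 460, 857 and 1471 CPM in libraries 3, 6 and 8, where Slc4a1 stood at 14082, 11863 and 13630 CPM.

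Genes that work with the 7 were followed through 5 lists of 61 further genes, 52 of which could be tested. In the labelled Lin28b KO libraries 37 of these were higher and 3 lower than in wild-type fetal liver. Their median log2 fold change was 2.67. Over all 13558 tested genes 20.8% were called higher and 23.0% lower. The low-count filter can keep a gene through the labelled libraries alone, where it is high. Bcl2l1, for example, averaged 1.21 CPM in the labelled libraries and 0 CPM in wild-type fetal liver. The list counts and their median may therefore be partly set by the filter, and are not support for the rise of the 7 genes. Of the 7 tested skeleton genes 6 were higher, among them the actin-capping Tmod1 at 220 ± 23.3 CPM in the labelled libraries and 2.82 ± 1.63 CPM in wild-type fetal liver, and Mpp1, a scaffold that links glycophorin C to protein 4.1, at 707 ± 67.8 CPM and 79.8 ± 2.10 CPM in the same order. Of 15 blood group and surface genes 12 were higher, among them glycophorin C (Gypc) at 647 ± 35.2 CPM in the labelled libraries and 100.1 ± 4.23 CPM in wild-type fetal liver, Kel at 1317 ± 60.9 CPM and 11.6 ± 5.25 CPM, and its partner Xk at 466 ± 16.3 CPM and 67.7 ± 8.79 CPM. Ank1, the adducin genes Add1, Add2 and Add3, Tpm1, Tspan33, Slc12a4, Jak2 and Tfr2 had too few counts to be tested. Reads set aside as ambiguous lower genes with several counted transcripts, so too few counts does not show that a gene was silent.

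Of the 10 tested channels and transporters 8 were higher and 1 lower in the labelled Lin28b KO libraries. The glucose transporter Slc2a1 averaged 2175 ± 172 CPM in the labelled libraries and 115 ± 4.33 CPM in wild-type fetal liver, the lactate transporter Slc16a1 452 ± 8.23 CPM and 171 ± 6.70 CPM, and Abcb6 253 ± 3.68 CPM and 32.0 ± 1.64 CPM. Downstream of the erythropoietin receptor 5 of 11 tested genes were higher and 1 lower. The feedback inhibitors Cish and Socs3 averaged 32.8 ± 2.67 CPM and 20.3 ± 0.378 CPM in the labelled libraries, against 2.62 ± 1.43 CPM and 3.74 ± 0.318 CPM in wild-type fetal liver, and the survival kinase gene Pim1 averaged 98.4 ± 9.19 CPM and 15.6 ± 2.83 CPM. Of 9 tested genes of iron entry 6 were higher and 1 lower. The mitochondrial iron carrier Slc25a37 averaged 5759 ± 487 CPM in the labelled libraries and 55.7 ± 12.9 CPM in wild-type fetal liver, the iron exporter Slc40a1 428 ± 42.3 CPM and 10.1 ± 3.4 CPM, and the endosomal iron transporter Slc11a2 124 ± 6.19 CPM and 28.1 ± 5.10 CPM. The genes named from these lists all had edgeR adjusted p of 6.4e-06 or less.

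**Figure D3:**
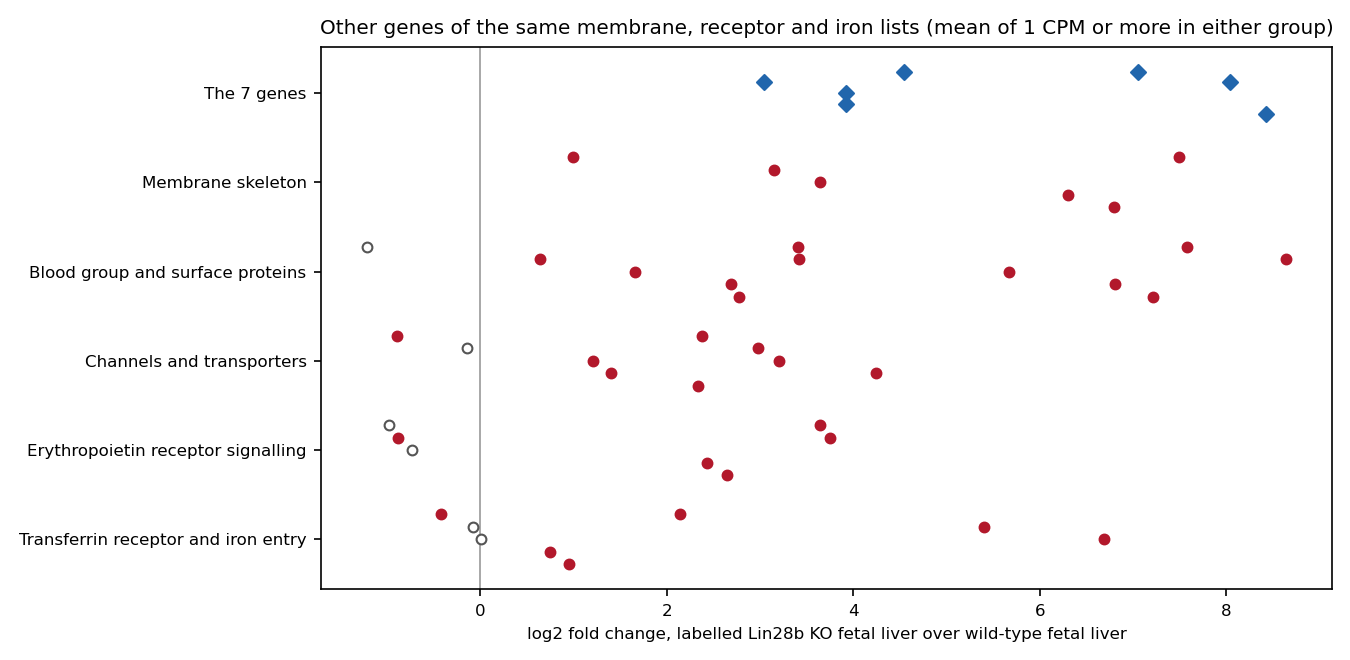
Log2 fold change of labelled Lin28b KO fetal liver over wild-type fetal liver for the 7 genes (diamonds, 3.04 to 8.43) and for 42 of the 52 tested genes of the 5 lists (circles; a mean of at least 1 CPM in either group and counts in both); filled circles passed edgeR's test at an adjusted p under 0.05. Of the 42 genes shown 33 were higher and 3 lower, where 20.8% and 23.0% of all tested genes were.

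Set against wild-type bone marrow, the labelled Lin28b KO libraries were again higher in all 7 genes (7 of 7; 23.6% of tested genes were called higher and 24.2% lower). These libraries are the same as in the comparison with wild-type fetal liver, so the tests are not independent. Log2 fold changes were 4.44 ± 0.31 for Epor, 4.66 ± 0.22 for Tfrc, 7.71 ± 0.68 for Slc4a1, 7.08 ± 0.42 for Epb42, 7.31 ± 0.79 for Rhag, 3.33 ± 0.12 for Icam4 and 1.45 ± 0.27 for Aqp1, with edgeR adjusted p of 0.000317 or less. Without wild-type marrow library 5 the value of Slc4a1 was 8.31. Without TMM scaling the median of all tested genes moved to -0.33 and the share of calls that were higher to 32.1% in place of 49.4%, and the 7 genes moved down by 0.31 to 0.32. The macrophage marker sum was 436 to 534 CPM in the labelled libraries and 54.0 to 63.5 CPM in wild-type marrow, the hepatocyte sum 460 to 1471 CPM and 323 to 378 CPM, the megakaryocyte sum 585 to 1048 CPM and 325 to 458 CPM, and the erythroid sum 17378 to 19346 CPM and 1492 to 1735 CPM. In wild-type marrow the hepatocyte sum was mostly Trf (337 ± 30.7 CPM). The stroma sum was 22.5 to 113 CPM in the labelled libraries and 4.67 to 9.37 CPM in wild-type marrow, the proliferation sum 11135 to 12372 CPM and 3771 to 4037 CPM, and the lymphoid sum 39.3 to 47.6 CPM and 68.3 to 74.7 CPM. Their part was not tested.

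In the single inducible let-7 library 6 of the 7 genes lay below the lowest wild-type fetal liver library and Rhag lay above the highest. Of the 13558 tested genes 46.6% lay below the wild-type range and 32.6% above it, so a place outside the range was common in this library. Aqp1 was 298-fold lower than in the pooled wild-type fetal liver counts, from 2 counts in the inducible let-7 library and 1341 in wild-type fetal liver (95% interval 82.3 to 2463, counting error only). Slc4a1 was 6.11-fold lower (5.24 to 7.18), Icam4 5.54-fold (4.39 to 7.08), Epb42 5.37-fold (3.48 to 8.72), Epor 2.42-fold (2.15 to 2.74) and Tfrc 1.58-fold (1.5 to 1.66). Rhag was 2.19-fold higher (1.96 to 2.46). With 1 library there is no replicate check and no test. Its erythroid marker sum was 333 CPM, against 840 to 1009 CPM in wild-type fetal liver, its megakaryocyte sum 32.3 CPM, against 108 to 131 CPM, and its lymphoid sum 37.5 CPM, against 118 to 144 CPM. Its granulocyte sum was 18904 CPM, against 5206 to 6787 CPM in wild-type fetal liver, its macrophage sum 28.4 CPM, against 12.2 to 18.9 CPM, and its hepatocyte sum 226 CPM, against 98.0 to 107 CPM. In wild-type fetal liver the hepatocyte sum was mostly Trf (97.75 ± 3.825 CPM). In the inducible let-7 library 5 of the 10 macrophage markers (Vcam1, Cd163, C1qa, Mrc1 and Marco) were at 0. So were 5 of its 10 hepatocyte markers (Afp, Ttr, Serpina1a, Ahsg and Apob). In wild-type fetal liver only Cd163, Serpina1a and Ahsg of these 2 lists were at 0. The higher macrophage and hepatocyte sums therefore do not describe either list as a set. The part of these cells in the values was not tested.

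In bone marrow of inducible LIN28B under vavcre 1 of the 7 genes differed from wild-type marrow (12.5% of tested genes were called higher and 14.3% lower). Epb42 averaged 37.7 ± 12 CPM with LIN28B under vavcre (n = 2) and 8.80 ± 4.13 CPM in wild-type marrow (SD, n = 3), a log2 fold change of 2.11 ± 0.38 (edgeR adjusted p = 0.000888). Both vavcre libraries were above all wild-type ones. Slc4a1 averaged 143 ± 20.4 CPM with LIN28B under vavcre and 63.1 ± 40.7 CPM in wild-type marrow (log2 1.18 ± 0.57, adjusted p = 0.14), and Rhag 17.2 ± 2.92 CPM and 8.87 ± 4.36 CPM (log2 0.97 ± 0.75, adjusted p = 0.359). For both genes the vavcre libraries lay above the wild-type ones, without passing edgeR's test. The share of all tested genes separated in this way was not counted. The other 4 genes had log2 values between -0.27 and 0.39. Among the list genes 6 of 52 were higher and 7 lower than in wild-type marrow. The Rh protein gene Rhd averaged 57.0 ± 11 CPM with LIN28B under vavcre and 14.2 ± 9.14 CPM in wild-type marrow (adjusted p = 0.0344), and Mpp1 55.1 ± 3.86 CPM and 91.2 ± 4.38 CPM (adjusted p = 4.62e-05). The erythroid marker sum was 2059 to 2542 CPM with LIN28B under vavcre and 1492 to 1735 CPM in wild-type marrow, the lymphoid sum 118 to 150 CPM and 68.3 to 74.7 CPM, and the proliferation sum 4478 to 4596 CPM and 3771 to 4037 CPM. The macrophage sum was 15.0 to 30.7 CPM with LIN28B under vavcre and 54.0 to 63.5 CPM in wild-type marrow, the megakaryocyte sum 253 to 285 CPM and 325 to 458 CPM, the endothelial sum 50.4 to 56.1 CPM and 59.96 to 65.7 CPM, and the stroma sum 2.57 to 3.88 CPM and 4.67 to 9.37 CPM. The part of these cells was not tested.

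With inducible LIN28B without vavcre none of the 7 genes passed edgeR's test against wild-type marrow (0.509% of tested genes were called higher and 0.295% lower). Epor and Icam4 had unadjusted p under 0.05, and DESeq2 called these 2. Epor averaged 44.6 ± 3.93 CPM with LIN28B alone (n = 2) and 20.9 ± 1.04 CPM in wild-type marrow (SD, n = 3), a log2 fold change of 1.10 ± 0.31 (edgeR adjusted p = 0.139, DESeq2 adjusted p = 0.0182; range over all alternatives 0.0058 to 0.595). Icam4 averaged 55.9 ± 0.0999 CPM with LIN28B alone and 38.1 ± 3.21 CPM in wild-type marrow, a log2 fold change of 0.55 ± 0.13 (edgeR adjusted p = 0.0601, DESeq2 adjusted p = 0.00177; range 0.00177 to 0.431). In these and in Aqp1 (101 ± 13.9 CPM with LIN28B alone, 68.8 ± 6.59 CPM in wild-type marrow) the 2 libraries lay above all wild-type ones. The share of all tested genes separated in this way was not counted, so the separation does not set these genes apart. Over the 52 list genes 1 was called, the feedback inhibitor Socs3 at 10.4 ± 2.93 CPM with LIN28B alone and 3.73 ± 0.808 CPM in wild-type marrow (adjusted p = 0.0397). Socs3 was also called with LIN28B under vavcre, where it averaged 13.9 ± 4.57 CPM (adjusted p = 0.000407). The erythroid marker sum was 2333 to 2545 CPM with LIN28B alone and 1492 to 1735 CPM in wild-type marrow, and the endothelial sum 72.2 to 80.4 CPM and 59.96 to 65.7 CPM. The granulocyte sum was 6133 to 7099 CPM with LIN28B alone and 10931 to 12981 CPM in wild-type marrow, the macrophage sum 12.6 to 14.02 CPM and 54.0 to 63.5 CPM, the hepatocyte sum 211 to 218 CPM and 323 to 378 CPM, and the stroma sum 3.04 to 3.17 CPM and 4.67 to 9.37 CPM. Most of the hepatocyte sum was Trf alone, at 209.5 ± 4.87 CPM with LIN28B alone and 337 ± 30.7 CPM in wild-type marrow. The difference in that sum therefore does not describe the hepatocyte markers as a set. What part these cells had was not tested.

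As a mean of both LIN28B lines, none of the 7 genes differed from wild-type marrow by edgeR or DESeq2 (6.59% of tested genes were called higher and 7.86% lower), and 1, Epb42, had an unadjusted p under 0.05. With vavcre compared directly with no vavcre, 1 of the 7 genes was higher and 2 were lower (9.37% of tested genes were called higher and 11.3% lower). Epb42 was higher by 2.57 ± 0.46 on the log2 scale (edgeR adjusted p = 0.00119), at 37.7 ± 12 CPM with vavcre and 6.34 ± 0.304 CPM without (n = 2 each). Icam4 was lower, at 31.5 ± 0.0382 CPM with vavcre and 55.9 ± 0.0999 CPM without (log2 -0.83 ± 0.14, adjusted p = 0.000928). Epor was lower, at 18.6 ± 4.78 CPM with vavcre and 44.6 ± 3.93 CPM without (log2 -1.26 ± 0.35, adjusted p = 0.0182). The libraries of the 2 lines did not overlap for any of the 7 genes, of which 4 were not called. With 2 libraries on each side such separation is a weak mark of difference. Its share over all tested genes was not counted. Slc4a1, Tfrc and Rhag, which were not called, had log2 values of 1.66 ± 0.66, 0.67 ± 0.24 and 0.86 ± 0.84, and Aqp1 -0.78 ± 0.32. The call of Epor ended without library 1 or 5 of the line without vavcre or library 6 of the line with it (adjusted p 0.0602 to 0.0942), and in a fit of these 2 groups alone both Epor (adjusted p = 0.0635) and Icam4 (0.0602) were lost and Slc4a1 was called (0.0378). Over all alternatives the adjusted p ranged from 0.00189 to 0.148 for Epor, 2.55e-07 to 0.0602 for Icam4 and 0.0245 to 0.289 for Slc4a1. Tfrc was called by DESeq2 (adjusted p = 0.0244) and without the filter on low counts (0.0245, edgeR), with a range of 0.0244 to 0.396. The granulocyte marker sum was 9684 and 14119 CPM with vavcre and 7099 and 6133 CPM without, the hepatocyte sum 333 to 366 CPM and 211 to 218 CPM, the lymphoid sum 118 to 150 CPM and 73.1 to 73.4 CPM, the proliferation sum 4478 to 4596 CPM and 3687 to 3836 CPM, and the macrophage sum 15.0 to 30.7 CPM and 12.6 to 14.02 CPM. Most of the hepatocyte sum was Trf alone, at 343 ± 22.2 CPM with vavcre and 209.5 ± 4.87 CPM without. The difference in that sum therefore does not describe the hepatocyte markers as a set. The megakaryocyte sum was 253 to 285 CPM with vavcre and 326 to 347 CPM without, and the endothelial sum 50.4 to 56.1 CPM and 72.2 to 80.4 CPM. The part of these cells was not tested.

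**Figure D4:**
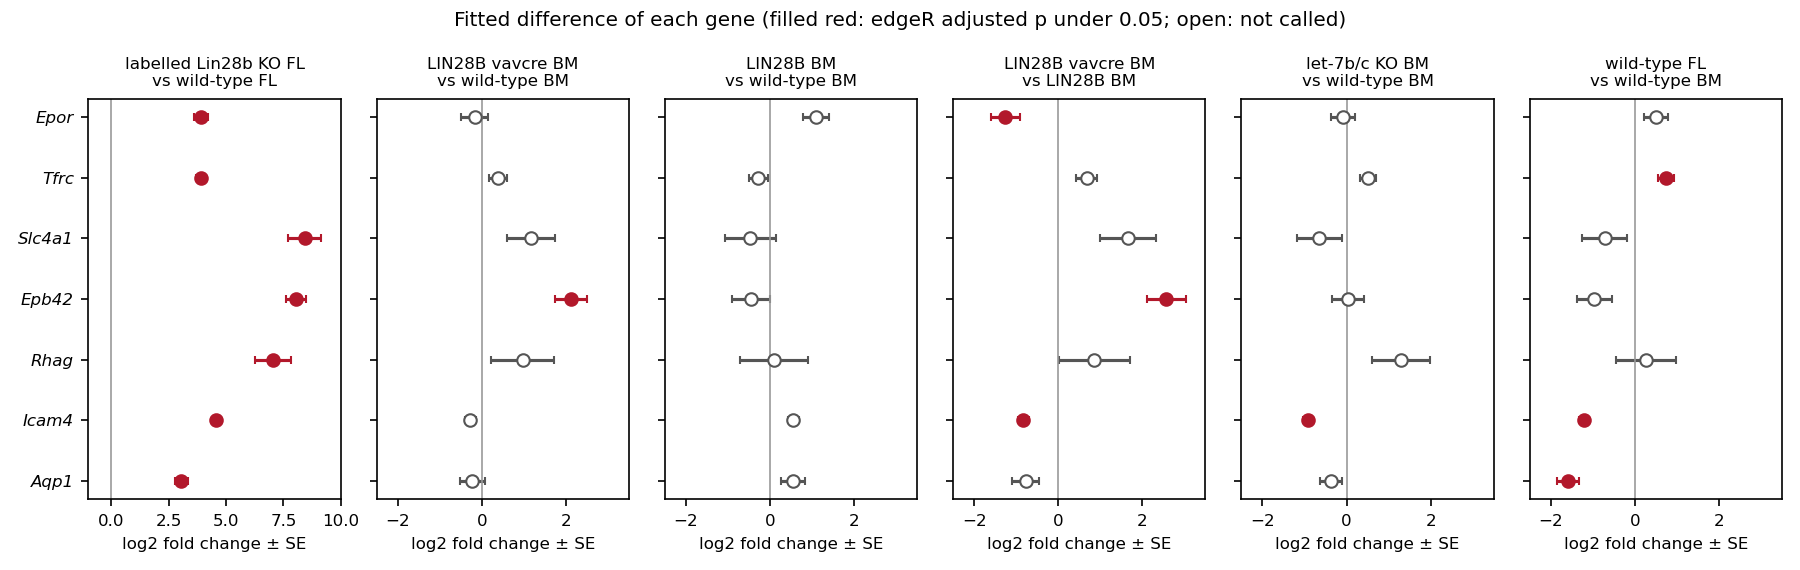
Fitted log2 fold change (points) with its standard error (bars) of each gene in 6 comparisons, the group named first over the group named second; filled red points passed edgeR's test at an adjusted p under 0.05. The first panel has a wider axis: all 7 genes lie between 3.04 and 8.43 there, while in the marrow comparisons the called values are 2.11 and 2.57 for Epb42, -0.83 and -0.92 for Icam4 and -1.26 for Epor.

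In the let-7b/c knockout 1 of the 7 genes differed from wild-type marrow (1.33% of tested genes were called higher and 0.922% lower). Icam4 averaged 20.1 ± 4.08 CPM in the knockout and 38.1 ± 3.21 CPM in wild-type marrow (SD, n = 3 each), 1.89-fold lower (log2 -0.92 ± 0.12, edgeR adjusted p = 0.000851), with no overlap between libraries and adjusted p from 0.000191 to 0.00838 when single libraries were left out. Against the mean of the LIN28B lines Icam4 was again the 1 gene called (log2 -1.06 ± 0.11, adjusted p = 3.94e-05; 10.5% of tested genes were called higher and 8.0% lower), a comparison that uses the same knockout libraries. Slc4a1 averaged 40.1 CPM in the knockout and 94.1 CPM over the LIN28B lines, with no overlap between libraries (2.01-fold lower in the fit, adjusted p = 0.185), and was called in a fit of the compared groups alone (0.00645, range over all alternatives 0.00645 to 0.593). Rhag averaged 21.7 ± 26.9 CPM in the knockout and 8.87 ± 4.36 CPM in wild-type marrow, and Aqp1 53.5 ± 31.3 CPM and 68.8 ± 6.59 CPM.

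Library 2 of the let-7b/c knockout decided several of these values. Without it the log2 fold change of Rhag against wild-type marrow was -0.47, in place of 1.30 ± 0.69, and Aqp1 was called lower (log2 -0.94, adjusted p = 0.00388). Against the LIN28B mean Aqp1 (log2 -1.11, adjusted p = 0.000245) and Epor (-1.07, 0.00571) were called lower without it. Without library 3 Tfrc was called higher in the knockout, both against wild-type marrow (adjusted p = 0.0447) and against the LIN28B mean (0.0126). Over all alternatives the adjusted p against wild-type marrow ranged from 0.00388 to 0.922 for Aqp1 and 0.0447 to 0.691 for Tfrc, and against the LIN28B mean from 0.000245 to 0.55 for Aqp1, 0.00571 to 0.617 for Epor and 0.0126 to 0.531 for Tfrc. The erythroid marker sum was 724, 1847 and 1104 CPM in knockout libraries 1, 2 and 3, and 1492 to 1735 CPM in wild-type marrow, and the granulocyte sum 16203, 20179 and 15660 CPM in the knockout and 10931 to 12981 CPM in wild-type marrow. The megakaryocyte sum was 131 to 234 CPM in the knockout and 325 to 458 CPM in wild-type marrow, and the macrophage sum 32.8 to 43.2 CPM and 54.0 to 63.5 CPM. What part these cells had was not tested. Among the list genes 1 was called against wild-type marrow, Hfe, an iron-sensing partner of the transferrin receptor, at 12.2 ± 0.467 CPM in the knockout and 6.65 ± 0.290 CPM in wild-type marrow (adjusted p = 0.0151).

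Between the wild types, 1 of the 7 genes was higher in fetal liver and 2 were lower than in bone marrow (13.9% of tested genes were called higher and 13.2% lower). Aqp1 averaged 22.9 ± 2.64 CPM in fetal liver and 68.8 ± 6.59 CPM in marrow (log2 -1.59 ± 0.27, edgeR adjusted p = 0.000466), and Icam4 16.5 ± 0.964 CPM and 38.1 ± 3.21 CPM (log2 -1.21 ± 0.12, adjusted p = 3.75e-06). Tfrc averaged 127 ± 19.9 CPM in fetal liver and 75.9 ± 4.57 CPM in marrow (log2 0.74 ± 0.20, adjusted p = 0.0108). Epor, at 29.8 ± 6.80 CPM in fetal liver and 20.9 ± 1.04 CPM in marrow, showed no overlap between libraries but did not pass the test (log2 0.51 ± 0.29, adjusted p = 0.21), except in a fit of the 2 wild-type groups alone (0.0246). Fetal liver library 1 held the most of all 7 genes in its group. Without it the call of Tfrc ended (adjusted p = 0.0572), and Slc4a1 (log2 -1.82, adjusted p = 0.0135) and Epb42 (-1.58, 0.0183) were called lower in fetal liver. Epb42 was also called without wild-type marrow library 2 (adjusted p = 0.0409). Over all alternatives the adjusted p ranged from 0.000319 to 0.0843 for Tfrc, 0.0246 to 0.522 for Epor, 0.0135 to 0.884 for Slc4a1 and 0.0183 to 0.415 for Epb42. The erythroid marker sum was 840 to 1009 CPM in fetal liver and 1492 to 1735 CPM in marrow, the granulocyte sum 5206 to 6787 CPM and 10931 to 12981 CPM, and the megakaryocyte sum 108 to 131 CPM and 325 to 458 CPM. The macrophage sum was 12.2 to 18.9 CPM in fetal liver and 54.0 to 63.5 CPM in marrow, the hepatocyte sum 98.0 to 107 CPM and 323 to 378 CPM, the stroma sum 2.18 to 3.77 CPM and 4.67 to 9.37 CPM, and the lymphoid sum 118 to 144 CPM and 68.3 to 74.7 CPM. Most of the hepatocyte sum was Trf alone, at 97.75 ± 3.825 CPM in fetal liver and 337 ± 30.7 CPM in marrow. The difference in that sum therefore does not describe the hepatocyte markers as a set. The part of these cells was not tested. Without TMM scaling the median of all tested genes moved to -0.19, in place of -0.08, and the share of calls that were higher to 38.1% in place of 51.3%. Among the list genes 7 of 52 were higher and 9 lower, among them Slc2a1 at 115 ± 4.33 CPM in fetal liver and 28.9 ± 4.57 CPM in marrow (adjusted p = 4.04e-06) and Slc40a1 at 10.1 ± 3.4 CPM and 42.2 ± 3.72 CPM (adjusted p = 0.000359).

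Both the summed level of the 7 genes and their make-up differed between groups. Together they took 1.48% to 1.67% of all counts in the labelled Lin28b KO libraries, 0.0117% in the inducible let-7 library and 0.0186% to 0.0461% in the other 13 libraries. Per kilobase of transcript, Slc4a1 led in all 3 labelled libraries, with 58.1% to 59.9% of the summed level of the 7 genes and 7.18 to 7.90 times the level of Tfrc. Tfrc led in the inducible let-7 library (43.1%) and in all 3 wild-type fetal liver libraries (29.2% to 34.5%). Icam4 led in every wild-type marrow library (30% to 38.6%) and in both libraries of LIN28B without vavcre (37.9% and 39.1%). With LIN28B under vavcre Icam4 led in library 4 (25%) and Slc4a1 in library 6 (25.2%). In the let-7b/c knockout Icam4 led in libraries 1 and 3 (27.9% and 32.2%) and Aqp1 in library 2 (25.5%).

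**Figure D5:**
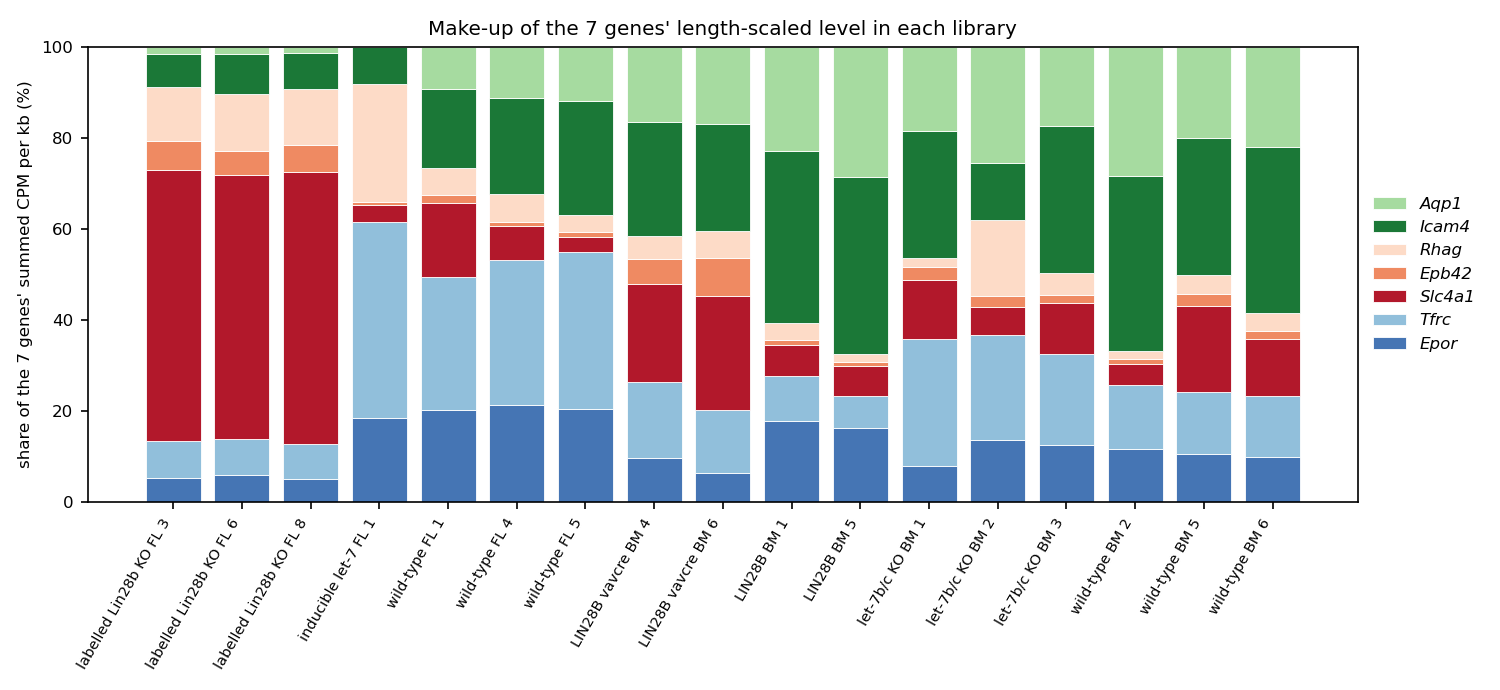
Share of each gene in the summed CPM per kilobase of the 7 genes, 1 bar per library, in percent. Slc4a1 fills 58.1% to 59.9% of the labelled Lin28b KO bars and at most 25.2% of any other, Tfrc is largest in the inducible let-7 and wild-type fetal liver bars, and Icam4 in all wild-type marrow bars.

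Likeness between genes was measured as the root mean square difference of log2 CPM, each gene centred on its own mean, over the 17 libraries; a smaller value means more alike profiles. Among the 7, Slc4a1 and Epb42 were the closest pair (0.61), followed by Epor and Tfrc (0.67), while Aqp1 and Rhag were the farthest apart (2.93). Without the labelled Lin28b KO libraries Slc4a1 and Epb42 stood at 0.53 and Epor and Tfrc at 0.73. Over 12152 other genes, the nearest to Slc4a1 was Trim10, a gene active in late red cell precursors (0.36), which was also among the 2 nearest to Epb42 (0.50) after the theta globin gene Hbq1b (0.40). The nearest to Epor was the mitochondrial transporter gene Abcb10 (0.45). The nearest to Icam4 was Pld3 (0.38), then Rec114 (0.42), and to Aqp1 the platelet integrin gene Itgb3 (0.45), then Abcb4 (0.51). Rhag had no close match: its nearest were Mmel1 (0.85) and Aqp3 (0.89). In wild-type fetal liver Mmel1 averaged 0.0179 CPM, Aqp3 0.400 CPM and Hbq1b 0.397 CPM. At such levels the prior count of 2 used for log2 CPM weighs on the profile.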

How the data were processed

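RNA of sorted common myeloid progenitors was measured in 17 libraries of 7 groups, made from total RNA with a low-input SMARTer kit, per the labels' protocols. Reads were handled with cutadapt and TopHat2 and counted with HTSeq on mm10, per the submitters' processing notes. No source used here gives versions or the strand setting. The deposited values are raw counts per RefSeq transcript (33818 accessions), which the authors made with HTSeq. Accessions were named from RefSeq GRCm38.p6 (33435) or GENCODE vM21 (191), 192 had no name, and counts were summed to 24416 genes. Reads that HTSeq set aside as ambiguous (23.8% to 29.8%) or outside transcripts (8.87% to 19.3%) entered no library size or test. This lowers genes with several transcripts, 1328 of 5108 of which were at 0; the 7 genes have 1 each.

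All 13558 genes kept by filterByExpr were tested in 1 fit of 7 group means (10 residual degrees of freedom) with the quasi-likelihood test of edgeR 4.0.16 (R 4.3.3), 2-sided, with TMM library sizes, Benjamini-Hochberg adjustment and a threshold of 0.05; the pipeline was tested on simulated data. Every adjusted p is edgeR's unless DESeq2 1.42.0 is named. CPM are counts per 1000000 of the TMM library size, and log2 CPM used a prior count of 2. Intervals (95%, exact) and values from few counts cover counting error only. All 7 genes were named in each comparison, with up to 3 called genes of each of 5 lists by smallest p; the nearest 2 genes by profile were chosen for each of the 7. A few of these genes, some from very few counts, are not reported here. The 7 genes and the lists were chosen with earlier results of these data known. Other scalings, filters, models, tools and single libraries left out were tried as alternatives. Replicate numbers were not taken to pair libraries: the labels give them no such meaning, and no 2 groups set directly against each other share more than 1 number. Tables and figures used Python 3.11.15, pandas 2.3.3, numpy 2.4.6, scipy 1.17.1 and matplotlib 3.10.9.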

Additional observations from a re-analysis of the deposited data

Results flagged for a closer look

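The 2 LIN28B lines, with and without vavcre, share wild-type marrow as their comparison, and for 3 of the 7 genes their values differed by the test of that difference itself (edgeR quasi-likelihood, LIN28B with vavcre minus LIN28B without vavcre). Epb42 differed by 2.57 on the log2 scale (adjusted p = 0.00119), Icam4 by -0.83 (0.000928) and Epor by -1.26 (0.0182). Each line has 2 libraries, and the call of Epor ended when any of 3 single libraries was left out. No group holds 4 or more libraries, so no single library was tested for standing apart from its group.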

How the results depend on the processing

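Over the 7 genes and 9 comparisons, 806 of the log2 fold changes computed under other settings kept both their direction and their side of the threshold, 22 gained a call, 8 lost one and 18 changed sign; the labelled Lin28b KO calls, 7 of 7 against both wild types, held under every setting run. The cause of the moves was not tested, apart from those that leave out genes or libraries. Every sign change was in a gene not called. With single libraries left out, Rhag ranged from -0.09 to 0.54 between the wild types (below 0 without marrow library 2 or fetal liver library 1). In the LIN28B mean Tfrc ranged from -0.08 (without library 1 of the line without vavcre) to 0.17, and Slc4a1 from -0.05 (without wild-type library 2) to 0.89. Without vavcre Rhag ranged from -0.57 to 0.59 (below 0 without line library 1 or wild-type library 2) and Slc4a1 from -0.88 to 0.07 (without wild-type library 5). With vavcre Epor ranged from -0.45 to 0.07 (without line library 6). In the let-7b/c knockout set against marrow of wild type, Epb42 ranged from -0.30 (without knockout library 2) to 0.44, Epor from -0.60 to 0.26 (above 0 without library 1 or 3) and Rhag from -0.47 (without library 2) to 1.83, and against the LIN28B mean Rhag ranged from -1.01 (without library 2) to 1.29. With a replicate block the sign changed for Aqp1 with vavcre (0.04) and, in the knockout, for Epb42 against wild type (-0.04, and -0.01 without TMM) and Rhag against the LIN28B mean (-0.12).

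Counts of called genes moved by over 1.5 times as follows. With a replicate block, which leaves 4 residual degrees of freedom and rests on numbers that were not taken to pair libraries, 2185 genes in place of 3677 were called between the wild types, 3073 in place of 5941 and 4279 in place of 6476 for the labelled Lin28b KO against fetal liver and marrow, 274 in place of 1958 for the LIN28B mean, 16 in place of 109 without vavcre, 1539 in place of 3634 with it, 435 in place of 2799 between the lines, and 35 in place of 305 and 541 in place of 2505 for the let-7b/c knockout against marrow and the LIN28B mean. Among the 7 genes the block ended the calls of Tfrc between the wild types (adjusted p = 0.0843) and of Epor between the lines (0.148) and no other. In fits of the compared groups alone 1132 genes were called for the LIN28B mean, 268 without vavcre, 2007 with it, 422 between the lines and 1000 for the knockout against the LIN28B mean. Without a filter 191 genes were called without vavcre, and DESeq2 called 403 there and 783 for the knockout against marrow. Of the 7 genes, without vavcre 2 were called with no filter, 1 in the groups alone and 2 by DESeq2; between the lines 5 with no filter; and for the knockout against the LIN28B mean 2 with no filter, in the groups alone and by DESeq2. Leaving out single libraries gave 1095 to 2672 genes for the LIN28B mean, 26 to 62 without vavcre, 1376 to 3152 between the lines, and 96 to 378 and 1591 to 3193 for the knockout against marrow and the LIN28B mean, where 1 to 2 and 1 to 3 of the 7 genes were called. CPM on summed counts moved 15 of 49 group means by more than 1 SD or counting interval. Leaving the labelled libraries out of the fit, an alternative chosen after seeing the data, changed no count of calls among the 7. Groups of 2 or 3 libraries and 2 Aqp1 counts in the inducible let-7 library limit what can be seen.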
